A study of Homo sapiens with 6 samples.

Results

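The 10 genes described here are PARP9, PARP14, DTX3L, SAMD9, SAMD9L, XAF1, EPSTI1, CMPK2, PLSCR1 and SP110, a group of interferon-stimulated genes whose products act in ADP-ribosylation, antiviral restriction, apoptosis, nucleotide supply, membrane lipid movement and nuclear bodies. They were chosen by name, with earlier results of these data known. Each name matched 1 protein-coding gene among the 19951 protein-coding genes, and 58735 genes in all, of the deposited expression table. RNA-seq was performed on NCI-N87 cells, an established human gastric carcinoma line, grown to about 80% confluence before harvest. The shCtrl cells (shNC in the sample labels) carried the empty lentiviral vector, and the shS1#1 cells (shScamp1 in the labels) carried the same vector with a short hairpin RNA against SCAMP1, a membrane protein of the endocytic and recycling system. Both groups went through lentivirus with polybrene and selection with puromycin (2 μg/ml). The control vector held no hairpin, so the loss of SCAMP1 and the presence of a hairpin cannot be told apart here. Each group had 3 libraries and the knockdown rested on 1 hairpin. The labels call the libraries biological replicates, while the study leaves RNA-seq out of the experiments it repeated independently, so the p-values measure the spread between these samples, which may be technical.

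Interferons bind receptors on the cell surface, whose JAK kinases phosphorylate transcription factors of the STAT family. One of them, STAT2, acts with IRF9 in a factor that binds the interferon-stimulated response element (ISRE) in the promoters of many genes. A different site, the gamma-activated site (GAS), serves the response to interferon gamma. The genes described here belong to the response that follows, and in epithelial cells many of them are expressed at some level without added interferon.

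The deposited values are FPKM, that is, fragments divided by the gene's length and the size of the library. They could be converted back to reads, and the libraries held from 14311769 to 15988700 reads on genes. SCAMP1 itself had a mean of 12.1 ± 0.562 FPKM in the controls, and of 1.69 ± 0.311 FPKM after the knockdown (SD, n = 3 per group). Epithelial markers were abundant, with a summed level between 5528 and 5812 FPKM in shCtrl and between 9234 and 10149 FPKM in shS1#1 libraries over 7 genes, of which 5 were higher in shS1#1 cells at an adjusted p under 0.05. Markers of leukocytes (5 genes), fibroblasts (5) and endothelial cells (4) each summed to at most 0.773 FPKM in any library. The endothelial sum was between 0.139 and 0.235 FPKM in shCtrl and between 0.381 and 0.612 FPKM in shS1#1 libraries, and the part of these marker differences in the results was not tested. PTPRC, which leukocytes express, had at most 4 reads, whereas CD14 of the same list had from 9 to 19 reads per library. COL1A1 of the fibroblast list had from 64 to 111 reads and passed the filter for testing. The library of shS1#1 replicate 2 stood apart, with 9.21% of its reads on mitochondrial genes against 6.09% to 6.78% in the other 5 libraries. Its read counts differed from those of the other shS1#1 libraries by a chi-square per degree of freedom of at least 34.5, whereas the other pairs of replicates were between 1.97 and 3.10. For the genes described here, fits and ratios were therefore repeated without this library and are given where the difference matters. Values for other single genes are given with all libraries only. The part of this library in the results was not tested beyond that.

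The promoters are shown because the ISRE and GAS are the sites through which interferon is known to act. RefSeq windows from 250 bases before to 50 bases after each transcript start (GRCh38.p14) were found for all 10 genes, 16 windows in all. The ISRE core was searched on both strands as GAAA, any 2 bases and GAAA (TTTC, any 2 bases and TTTC on the other strand). It was in a window of 6 of the 10 genes (PARP9, PARP14, DTX3L, SAMD9, EPSTI1 and PLSCR1), against 4.38% of the 27305 genes with windows. In the lines below the matched letters are in capitals, and each sequence is written 5′ to 3′ on the strand of its gene.
PARP9 (chr3:122564322-122564351, minus strand): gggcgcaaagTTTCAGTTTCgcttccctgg
DTX3L (chr3:122564322-122564351, plus strand): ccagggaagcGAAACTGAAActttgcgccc
PARP14 (chr3:122680800-122680829, plus strand): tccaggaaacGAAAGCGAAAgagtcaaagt
SAMD9 (chr7:93118096-93118125, minus strand): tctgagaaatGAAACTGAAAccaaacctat
EPSTI1 (chr13:42992272-42992301, minus strand): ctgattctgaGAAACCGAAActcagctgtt
PLSCR1 (chr3:146544667-146544696, minus strand): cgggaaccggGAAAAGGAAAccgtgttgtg

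PARP9 and DTX3L are divergent genes, and their matches are the same 10 bases of chromosome 3 (122564332 to 122564341) read from opposite strands. These bases lay 41 to 32 bases before the RefSeq start of PARP9 and overlapped the start of DTX3L. After the sequences were seen, a shorter spacing was also searched, GAAANGAAA with TTTCNTTTC on the other strand, whose matches overlap those of the ISRE core in PARP14 and SAMD9. It was in windows of PARP14, SAMD9, XAF1, CMPK2, PLSCR1 and SP110, and in those of 3.87% of all genes. XAF1, CMPK2 and SP110 had this spacing and no match to the ISRE core, and the following lines show 1 match for each.
XAF1 (chr17:6756031-6756059, plus strand): ttgcctgcaaGAAACGAAActcaaccgaa
CMPK2 (chr2:6865820-6865843, minus strand): ggcctccggcTTTCGTTTCcccgc
SP110 (chr2:230225723-230225751, minus strand): agtcaaagagGAAAAGAAAagtgaaattg

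With either spacing, 9 of the 10 genes had a match, against 7.83% of all genes with windows. SAMD9L had neither set of letters in its window. The GAS letters TTCNNNGAA, the same on both strands, were found for PARP14, EPSTI1, PLSCR1 and SP110, and for 9.38% of all genes, and the match of EPSTI1 overlaps its ISRE core. A match describes the letters of the window and not the binding of a factor, and the choice of the second spacing followed the sequences of these genes. The 10 genes were also chosen as interferon-stimulated genes, and with earlier results of these data known. A share of matches above that of all genes may follow from that choice and is no result about the knockdown.

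All 10 genes were higher in shS1#1 than in shCtrl cells, from 1.53-fold for PLSCR1 to 8.45-fold for EPSTI1 by the ratio of mean FPKM. By limma on log2(FPKM + 0.1), 10 of the 10 had a Benjamini-Hochberg adjusted p under 0.05, against 8.82% of the 15556 genes tested that were higher at that threshold. Of the 10, 7 also had a log2 fold change above 1 and were counted as differentially expressed, against 2.42% of all genes, and 3 (PARP14, DTX3L and PLSCR1) were below that fold. None was lower, where 0.746% of all genes tested were lower by both criteria and 5.17% at the adjusted p alone. Without shS1#1 replicate 2 the count was 6, against 2.52% of all genes, since SP110 came to a log2 fold change just under 1. The FPKM of 10 of the 10 genes did not overlap between the groups, as for 20.4% of all genes tested in this direction. An exact two-sided permutation test on any single gene cannot give less than p = 0.1 with 3 libraries against 3. EPSTI1, XAF1 and CMPK2 had a mean under 0.5 FPKM in shCtrl cells and passed the filter (0.5 FPKM or more on average across the 6 libraries) through their shS1#1 values, so these 3 had to differ. Among the other 7 genes, 4 were differentially expressed, and without shS1#1 replicate 2 only PARP9, SAMD9 and SAMD9L were. The median log2 fold change was 1.34 over the 10 genes and 1.05 over these 7, beside -0.022 over all genes tested. In bulk RNA, more cells that express a gene and more RNA per cell cannot be told apart. The genes were chosen with earlier results of these data known, so these counts and medians are not independent of that choice.

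**Figure D1:**
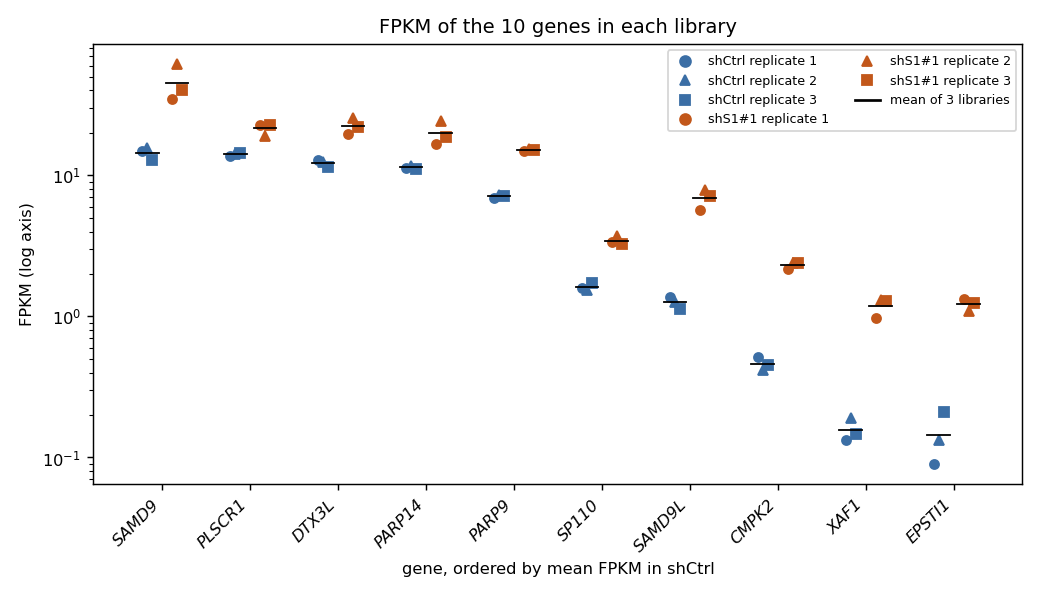
FPKM of each gene (log axis) in each library, with shCtrl in blue, shS1#1 in orange, a marker shape for each replicate number and a black line at the mean of 3 libraries. For every gene the 3 shS1#1 libraries sit above the 3 shCtrl libraries, with SAMD9 at the top in both groups.

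Since FPKM is scaled to length, levels were compared between the genes. The length is that of all annotated exonic bases of a gene, whichever transcripts are expressed, so the order between genes is approximate. In shCtrl cells, SAMD9, PLSCR1, DTX3L, PARP14 and PARP9 had means from 14.4 down to 7.11 FPKM. SP110 (1.61 FPKM) and SAMD9L (1.26 FPKM) followed, and CMPK2, XAF1 and EPSTI1 were below 0.5 FPKM. In this order the neighbours SAMD9 and PLSCR1, DTX3L and PARP14, and XAF1 and EPSTI1 overlapped in their libraries, and the other neighbours did not. In shS1#1 cells SAMD9 stood alone at the top with a mean of 45.5 FPKM, while DTX3L, PLSCR1 and PARP14 overlapped in turn between 22.5 and 19.8 FPKM. SAMD9L, at 6.90 FPKM, was above SP110, at 3.44 FPKM, whereas in shCtrl cells SP110 was above SAMD9L. In both orders the ranges of these 2 genes were separate.

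PARP9 and DTX3L encode partners of a complex that acts in the response to DNA damage and in interferon signalling: PARP9 binds ADP-ribose through macrodomains, and DTX3L is a ubiquitin ligase. PARP9 (ENSG00000138496) lies on the reverse strand of chromosome 3 from 122527924 to 122564577 (GRCh38, as for all gene coordinates from the files). The shCtrl libraries had 6.93, 7.24 and 7.15 FPKM, and the shS1#1 libraries 14.8, 15.5 and 15.1 FPKM. The 3 libraries of each group lay close together, and the groups were far apart. The mean rose from 7.11 ± 0.159 to 15.1 ± 0.346 FPKM (SD, n = 3 per group), which limma estimated as a log2 fold change of 1.08 (SE 0.060, limma adjusted p = 0.000398). Its spread between replicates was 2.24% of the mean in shCtrl and 2.29% in shS1#1 cells, about the size of the counting error of its reads (3.14% and 2.28%).

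DTX3L (ENSG00000163840), on the forward strand from 122564238 to 122575203, begins inside the PARP9 gene, and 217 of its exonic bases (3.70%) are shared with PARP9. It was at 12.8, 12.5 and 11.5 FPKM in shCtrl and at 19.8, 25.7 and 22.05 FPKM in shS1#1 libraries, highest in shS1#1 replicate 2. The groups did not overlap, and the mean rose from 12.3 ± 0.708 to 22.5 ± 2.99 FPKM (SD, n = 3 per group). The log2 fold change of 0.86 (SE 0.11, limma adjusted p = 0.00514) stayed under the fold threshold, and was 0.76 without shS1#1 replicate 2.

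PARP14, a large macrodomain protein that transfers single ADP-ribose units, is encoded on the same strand as DTX3L, from 122680618 to 122730840 (ENSG00000173193). Its values were 11.3, 11.7 and 11.1 FPKM in shCtrl and 16.7, 24.1 and 18.7 FPKM in shS1#1 libraries. Replicate 2 was again the highest of the shS1#1 libraries, and the groups did not overlap. The mean rose from 11.4 ± 0.306 to 19.8 ± 3.85 FPKM (SD, n = 3 per group; log2 fold change 0.78, SE 0.14, limma adjusted p = 0.0155). This adjusted p rose above 0.05 in 4 of 6 fits to 5 libraries: 0.0690, 0.0648 and 0.0730 without shCtrl replicates 1, 2 and 3, and 0.0521 without shS1#1 replicate 3. Without shS1#1 replicate 2 the log2 fold change was 0.63 with a smaller SE (0.061, limma adjusted p = 0.00154).

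The relation between these neighbours was examined through the ratio of their FPKM within each library. With 0.1 added to each FPKM, PARP9 was between 0.543 and 0.626 times DTX3L in the shCtrl libraries and between 0.603 and 0.748 times DTX3L in the shS1#1 libraries. These ranges overlapped, and the mean log2 ratio differed by 0.21 (exact two-sided permutation test, p = 0.2). The overlap came from shS1#1 replicate 2, and without it the difference was 0.30 (exact permutation test, p = 0.2). PARP14 was 1.63, 1.61 and 1.54 times PARP9 in shCtrl and 1.13, 1.56 and 1.24 times PARP9 in shS1#1 libraries, with a difference in log2 ratio of -0.30 (exact permutation test, p = 0.2). Here too the overlap came from shS1#1 replicate 2, and without it the difference was -0.43 (exact permutation test, p = 0.2, where 2 against 3 libraries allow no less than this).

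SAMD9 and SAMD9L are paralogues that lie side by side on chromosome 7, on the reverse strand, and their proteins restrict poxviruses and slow cell growth when activated. SAMD9 (ENSG00000205413, from 93099513 to 93118023) was at 14.9, 15.7 and 12.8 FPKM in shCtrl and at 34.7, 61.6 and 40.2 FPKM in shS1#1 libraries. The value of shS1#1 replicate 2 was far above those of the other shS1#1 libraries, which were themselves at least 2.21 times the highest shCtrl library. The mean rose from 14.4 ± 1.47 to 45.5 ± 14.2 FPKM (SD, n = 3 per group), a log2 fold change of 1.61 (SE 0.22, limma adjusted p = 0.00632). Without shS1#1 replicate 2 it was 1.37 (SE 0.10, limma adjusted p = 0.000694). The spread between the shS1#1 libraries was 31.3% of the mean, whereas counting error was 1.502%.

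SAMD9L (ENSG00000177409, from 93130055 to 93148369) was lower than its neighbour in every library. It was at 1.38, 1.26 and 1.13 FPKM in shCtrl and at 5.67, 7.91 and 7.12 FPKM in shS1#1 libraries, with no overlap. The mean rose from 1.26 ± 0.122 to 6.90 ± 1.14 FPKM (SD, n = 3 per group), a 5.48-fold difference, and the log2 fold change was 2.36 (SE 0.14, limma adjusted p = 0.000547). With 0.1 added to each FPKM, SAMD9 was 10.1, 11.6 and 10.5 times SAMD9L in the shCtrl libraries and 6.03, 7.70 and 5.59 times SAMD9L in the shS1#1 libraries. The ranges of this ratio were separate, with a mean difference of -0.75 on the log2 scale (p = 0.1 by an exact two-sided permutation test, which can go no lower). With a pseudocount of 1 in place of 0.1 the difference was -0.25 (exact permutation test, p = 0.3). Adjusted over the 3 ratios compared (Benjamini-Hochberg), each exact permutation test gave p = 0.2. In FPKM the difference between the group means was 31.1 for SAMD9 and 5.64 for SAMD9L.

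**Figure D2:**
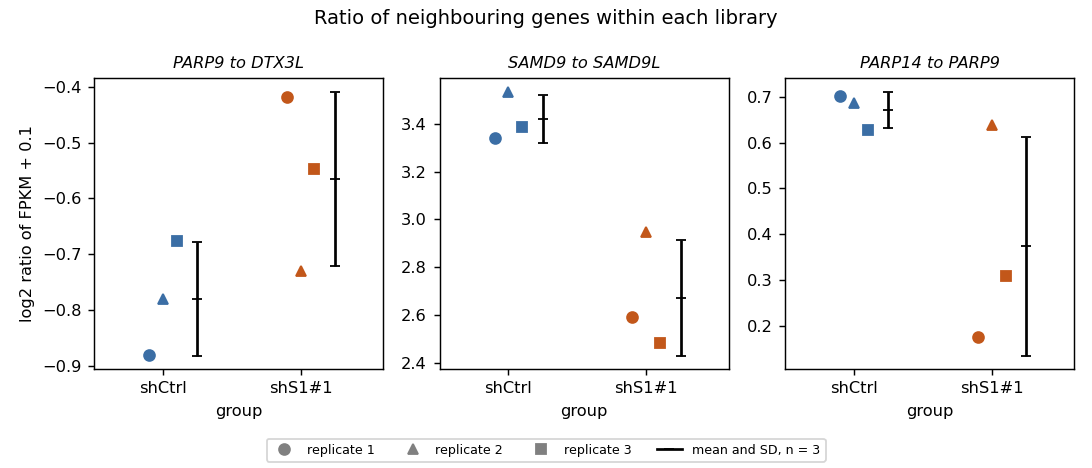
Log2 ratio of FPKM + 0.1 within each library for 3 pairs of neighbouring genes, with a marker shape for each replicate number, group means and SD (n = 3) in black, and a separate vertical scale for each panel. The ratio of SAMD9 to SAMD9L was lower in all 3 shS1#1 libraries, and the other ratios overlapped between the groups.

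EPSTI1, XAF1 and CMPK2 were the genes with the lowest control levels. EPSTI1 (ENSG00000133106, chromosome 13 from 42886388 to 42992271, reverse strand), a gene first described in epithelial cells grown with stromal cells, was at 0.0897, 0.134 and 0.210 FPKM in shCtrl and at 1.33, 1.10 and 1.24 FPKM in shS1#1 libraries. The control values rested on 7, 11 and 16 reads, and those of shS1#1 on 96, 74 and 89 reads, so the fold is poorly determined although the groups are far apart. The log2 fold change was 2.46 (SE 0.33, limma adjusted p = 0.00667) with a 95% interval from 1.65 to 3.27. It was 0.96 with a pseudocount of 1 and 3.11 with voom on the recovered reads.

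XAF1 (ENSG00000132530, chromosome 17 from 6755447 to 6775647, forward strand) encodes an antagonist of the apoptosis inhibitor XIAP. Its values were 0.133, 0.191 and 0.147 FPKM in shCtrl, from 14 to 21 reads, and 0.973, 1.31 and 1.29 FPKM in shS1#1 libraries, from 94 to 125 reads. The groups were separate, and the log2 fold change was 2.33 (SE 0.31, limma adjusted p = 0.00602), 0.92 with a pseudocount of 1 and 2.89 with voom. The gene shares 38.3% of its exonic bases with PRAL on the opposite strand, which was at 0.0130 FPKM in shCtrl and 0.0976 FPKM in shS1#1 cells. Whether reads were counted by strand is not given in the sources used here, so those of the shared bases cannot be assigned and the level of XAF1 is uncertain. XIAP itself was at 6.54 ± 0.452 and 8.19 ± 1.13 FPKM (SD, n = 3 per group; log2 fold change 0.31, limma adjusted p = 0.127).

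CMPK2 (ENSG00000134326, chromosome 2 from 6840570 to 6866635, reverse strand), a mitochondrial nucleotide kinase, was at 0.513, 0.418 and 0.451 FPKM in shCtrl and at 2.18, 2.38 and 2.38 FPKM in shS1#1 libraries. Both groups were tight, and the mean rose from 0.461 ± 0.0480 to 2.31 ± 0.115 FPKM (SD, n = 3 per group; log2 fold change 2.11, SE 0.15, limma adjusted p = 0.000699). With a pseudocount of 1 the log2 fold change was 1.18. Its divergent neighbour RSAD2, which encodes the antiviral enzyme viperin, rose from 0.434 ± 0.0993 to 3.22 ± 0.265 FPKM (SD, n = 3 per group; log2 fold change 2.65, limma adjusted p = 0.000696), and the genes share 14 exonic bases.

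PLSCR1 and SP110 showed smaller differences. PLSCR1 (ENSG00000188313, chromosome 3 from 146515180 to 146544864, reverse strand), a phospholipid scramblase of the plasma membrane that also restricts viruses, was at 13.7, 14.3 and 14.4 FPKM in shCtrl and at 23.0, 19.1 and 22.7 FPKM in shS1#1 libraries. Here shS1#1 replicate 2 was the lowest of its group, still above all controls. The mean rose from 14.1 ± 0.374 to 21.6 ± 2.15 FPKM (SD, n = 3 per group), a log2 fold change of 0.60 (SE 0.089, limma adjusted p = 0.00855), and of 0.69 without shS1#1 replicate 2. The adjusted p was 0.0513 without shCtrl replicate 1.

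SP110 (ENSG00000135899, chromosome 2 from 230167293 to 230225729, reverse strand) encodes a nuclear body protein with a SAND domain. It was at 1.58, 1.53 and 1.72 FPKM in shCtrl and at 3.36, 3.71 and 3.25 FPKM in shS1#1 libraries, without overlap. The mean rose from 1.61 ± 0.0964 to 3.44 ± 0.244 FPKM (SD, n = 3 per group; log2 fold change 1.05, SE 0.098, limma adjusted p = 0.00172). It stood close to the fold threshold, with a 95% interval from 0.81 to 1.29 and a value of 0.995 without shS1#1 replicate 2. SP110 shares 18.4% of its exonic bases with AC009950.1 on the opposite strand, a transcript at 0.0674 FPKM in shCtrl and 0.149 FPKM in shS1#1 cells, and reads there cannot be assigned without strand.

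**Figure D3:**
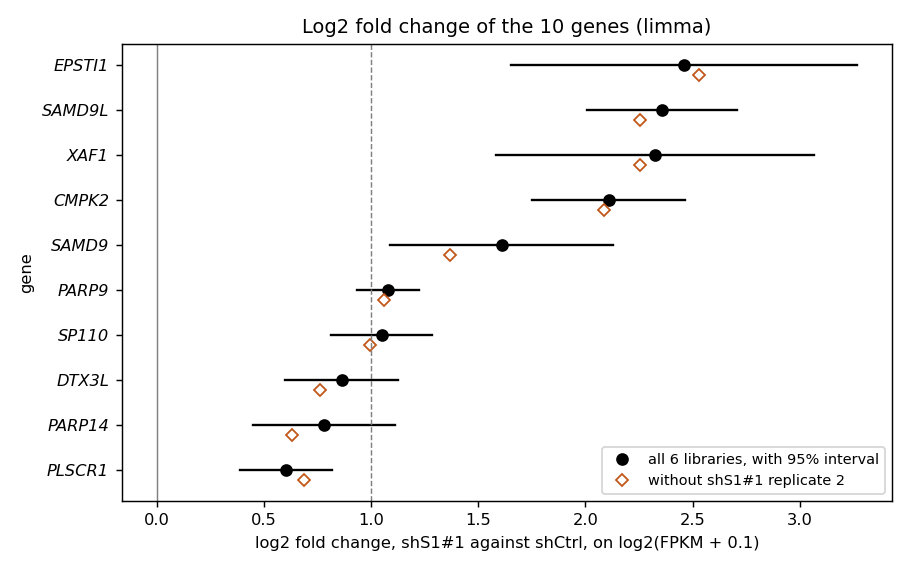
Log2 fold change of each gene in shS1#1 against shCtrl cells by limma on log2(FPKM + 0.1), as black points with 95% intervals for all 6 libraries and open diamonds without shS1#1 replicate 2. No interval includes 0, and the dashed line marks the fold threshold of 1, which SP110 (1.05) and PARP9 (1.08) exceed by little.

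The genes did not vary alike among the shS1#1 libraries. Replicate 2 held the highest shS1#1 value of 7 genes and the lowest of 2, EPSTI1 and PLSCR1, whereas replicate 1 held the lowest of 7. The median deviation of the 10 genes from the shCtrl mean was 1.16, 1.63 and 1.27 on the log2 scale in shS1#1 replicates 1, 2 and 3, and between -0.029 and 0.022 in the shCtrl libraries. The summed FPKM of the 10 genes was between 60.6 and 65.0 in shCtrl and was 122, 163 and 134 in the shS1#1 libraries. Among all protein-coding genes tested, those whose log2 values followed the mean of the 10 genes most closely over the 6 libraries were SERPINA1 (r = 0.999), MX2 (r = 0.999) and FBXO32 (r = 0.999). These correlations mostly restate the difference between the groups and are given as a description.

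To see whether the difference was shared by the surroundings of these genes, genes whose start lies within 250 kb of them were read from the same fit. Of 85 such neighbours 30 were tested. Only RSAD2 was differentially expressed by the same criteria, against 2.42% of all genes tested that were higher. With a mean of 0.434 FPKM in shCtrl cells, RSAD2 passed the filter through its shS1#1 values. The median log2 fold change of the 30 was 0.14. At an adjusted p under 0.05, 4 of the 30 were higher (RSAD2, SP100, DIRC2 and FBXO36), against 8.82% of all genes tested. SLC16A14, which starts 98.3 kb from SP110, was the only one lower, against 5.17% of all genes tested. Near PARP9, DTX3L and PARP14, the gene KPNA1, which begins beside PARP9, had a log2 fold change of 0.10 (limma adjusted p = 0.333), and HSPBAP1 one of 0.15 (adjusted p = 0.422). At the same locus DIRC2, which starts 64.0 kb from PARP14, had a log2 fold change of 0.73 (limma adjusted p = 0.00903), and FAM162A had -0.40 (adjusted p = 0.154). VPS50, the neighbour of SAMD9L that passed the filter, had 0.32 (adjusted p = 0.111), DNAJC15 beside EPSTI1 had 0.18 (adjusted p = 0.254), and no neighbour of PLSCR1 passed the filter. The 12 tested neighbours of XAF1 had log2 fold changes between -0.63 (TXNDC17) and 0.42 (ALOX12P2), with no adjusted p under 0.05.

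**Figure D4:**
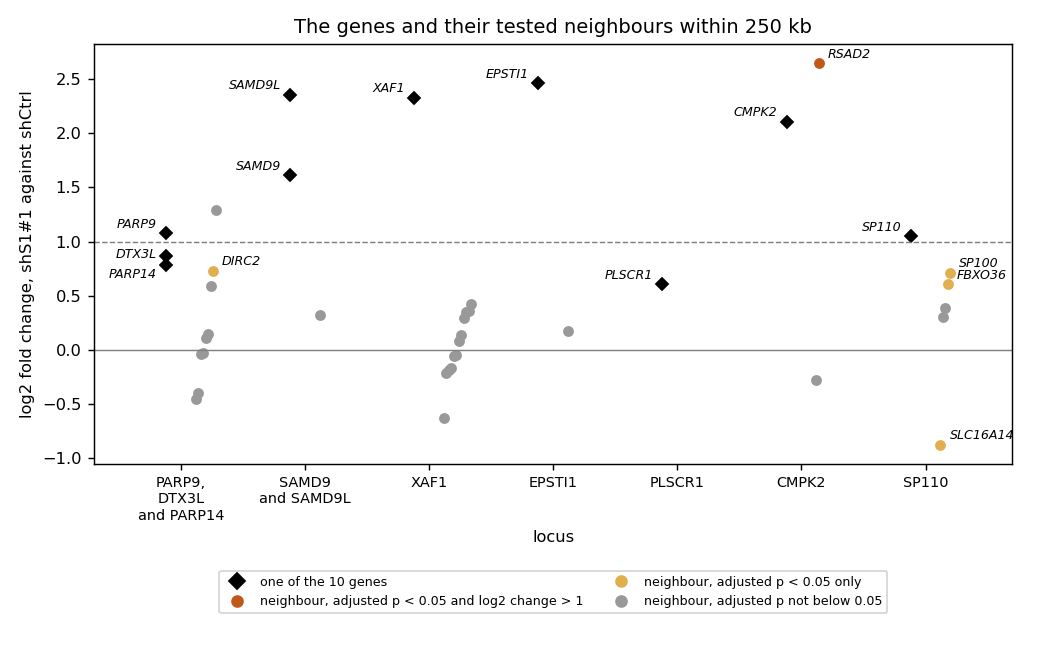
Log2 fold change in shS1#1 against shCtrl cells of the 10 genes (black diamonds) and of their 30 tested neighbours within 250 kb (circles, coloured by call), arranged by locus. RSAD2 beside CMPK2 is the only neighbour past both thresholds, and the grey circle above 1 is AC083798.1, a pseudogene with an adjusted p of 0.465.

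Upstream components of the interferon pathway were then examined. Of 21 interferon genes, IFNE alone passed the filter, and it rose from 1.196 ± 0.286 to 3.15 ± 0.517 FPKM (SD, n = 3 per group; log2 fold change 1.34, limma adjusted p = 0.00942), from 22 to 75 reads per library. IFNB1 had at most 1 read in any library, and IFNA1 had 1, 2 and 6 reads in shCtrl and 8, 9 and 9 in shS1#1 libraries. IFNL1 had 1, 1 and 0 reads in shCtrl and 12, 0 and 5 reads in shS1#1 libraries. For IFNL3 there were 0 reads in each shCtrl library and 4, 3 and 0 in the shS1#1 libraries. A total of 9 interferon genes had no read in any library, which at this depth does not show that they are silent.

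Among receptors, IFNAR1 was higher (log2 fold change 0.78, adjusted p = 0.00903), as were IFNLR1 (0.76, adjusted p = 0.0106) and IFNGR1 (0.54, adjusted p = 0.0408), none of them above the fold threshold. Of 10 transducers, 2 were differentially expressed, both higher. STAT2 rose from 5.07 ± 0.0879 to 11.8 ± 0.726 FPKM and IRF7 from 4.77 ± 0.289 to 12.9 ± 1.06 FPKM (SD, n = 3 per group), with log2 fold changes of 1.197 and 1.42. The kinases JAK1 (0.12, adjusted p = 0.429) and TYK2 (-0.038, adjusted p = 0.767) did not pass the test. IRF9 had a log2 fold change of 0.52 (adjusted p = 0.111), and it shares 48.4% of its exonic bases with another gene. Of the negative regulators, USP18 rose (0.99, adjusted p = 0.00169) and SOCS3 was lower without passing the test (-1.12, adjusted p = 0.0960).

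Relatives of the 10 genes were read from the same fit. None of the 13 other PARP family genes tested was differentially expressed by both criteria. PARP10 (log2 fold change 0.99), TNKS2 (0.85), PARP12 (0.83) and TIPARP (0.73) were higher at an adjusted p under 0.05 (0.00240, 0.00991, 0.00128 and 0.00261 by limma), and PARP1, the main DNA damage PARP, was lower (-0.38, adjusted p = 0.00854). The median of the 13 was 0.28. The deltex genes DTX1, DTX2 and DTX4 did not pass the test, with log2 fold changes between 0.28 and 0.40. Among enzymes that remove or read ADP-ribose, ADPRH was higher (0.81, adjusted p = 0.0399), and PARG was at 7.13 ± 0.282 and 7.19 ± 0.566 FPKM (SD, n = 3 per group).

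Of the nuclear body genes related to SP110, SP100 (0.71, adjusted p = 0.00263) and PML (0.55, adjusted p = 0.0159) rose, and SP140L did not pass the test (0.30, adjusted p = 0.0604). CMPK1, the cytosolic relative of CMPK2, had a log2 fold change of 0.13 (adjusted p = 0.339), while SAMHD1, which degrades nucleotides, rose (0.61, adjusted p = 0.0329) and TK1 fell by 0.27 on the log2 scale (adjusted p = 0.0473). Of the IAP genes and XIAP antagonists tested, BIRC2 rose (0.39, adjusted p = 0.0221). The other scramblase genes were each under 0.5 FPKM and were not tested.

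For comparison, 10 of 11 antiviral effectors (the IFIT, OAS and MX genes and RSAD2) were differentially expressed, all higher, with a median log2 fold change of 2.29, and IFIT5 was below the fold threshold (0.82). RSAD2, at 0.434 FPKM in shCtrl cells, passed the filter through its shS1#1 values. Without RSAD2 the median of that list lies between 1.47 (OAS1) and 2.29 (IFIT1). In the ISG15 system 2 of 5 tested genes, ISG15 and HERC6, were differentially expressed, and the median was 0.99. The 10 genes had a median of 1.34, between those of these lists. That median includes EPSTI1, XAF1 and CMPK2, which passed the filter through their shS1#1 values. The median of the other 7 genes was 1.05, and no test of the difference between lists was made.

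**Figure D5:**
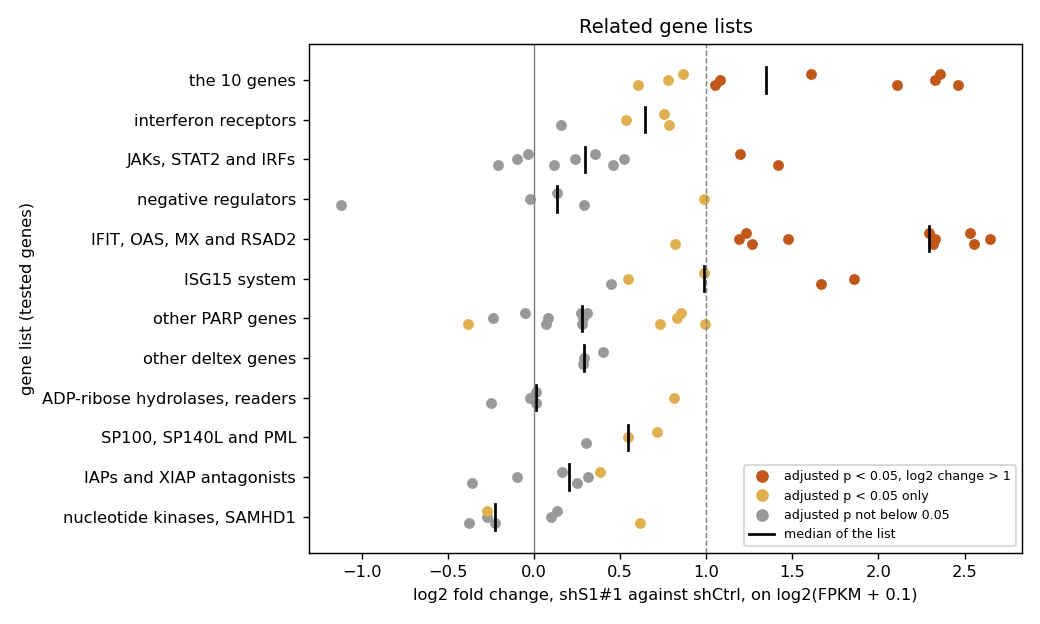
Log2 fold change in shS1#1 against shCtrl cells of each tested gene in the 10 genes and in 11 related lists, coloured by call, with a black line at each median. The medians were 1.34 for the 10 genes (1.05 without EPSTI1, XAF1 and CMPK2), 2.29 for the antiviral effectors (RSAD2 included) and 0.28 for the other PARP genes.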

How the data were processed

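The authors deposited FPKM per gene and sample. Per the labels, their processing notes name HISAT2 2.0.5, featureCounts 1.5.0-p3, DESeq2 1.20.0 and hg38, without roles. Gene coordinates equalled GENCODE 29 for all 58735 genes. In each library, multiplying FPKM by gene length gave whole multiples of 1 step (within 0.01 reads for 100% of values above 0), from which reads were obtained. Relative to total reads, the deposited values carried a scaling between libraries from 0.947 to 1.03. Expression was tested in R 4.3.3 with limma 3.58.1 (lmFit, eBayes with trend) on log2(FPKM + 0.1). The 15556 genes that averaged 0.5 FPKM or more were kept, with Benjamini-Hochberg adjustment over all of them. This scale understates changes of low genes. Differential expression was called at an adjusted p under 0.05 with a log2 fold change above 1 or below -1. The method was tested on simulated data in which no library stood apart, so that test does not cover a library like shS1#1 replicate 2. Ratios were compared by exact permutation tests (scipy 1.17.1). Counting error is the Poisson error of the mean reads per library. Genes named are the 10 genes, SCAMP1, genes of the written lists, called neighbours, and the 3 genes most alike; any other neighbour was picked with its value in view. The members and lists were chosen with earlier results of these data known. In the list of signal transducers, 1 gene is not reported here. Alternatives changed the pseudocount, filter, trend, scaling, test, biotypes, block, threshold and libraries.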

Additional observations from a re-analysis of the deposited data

How the results depend on the processing

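The direction of all 10 genes held in each of the 158 values obtained under 16 alternatives (pseudocount, filter, trend, scaling to total reads, voom on the recovered reads, biotypes, replicate block, unadjusted p and each library left out). This outcome was largely fixed in advance, since the FPKM of the 10 genes did not overlap between the groups. The filter, trend, biotypes, replicate block and unadjusted p also leave the fold change of a tested gene as it was. With a pseudocount of 1, 3 of the 10 genes passed both criteria (SAMD9, SAMD9L and CMPK2) and the median log2 fold change was 0.94, since this scale shrinks the folds of low genes. A filter of 1 FPKM left 8 genes with a median of 1.06, as XAF1 and EPSTI1 were no longer tested. Scaling to total reads gave 6 genes and a median of 1.27. In the fits without 1 of the 6 libraries, 6 to 7 genes passed both criteria, and the log2 fold change lay between 0.63 and 0.89 for PARP14 and between 0.56 and 0.69 for PLSCR1. Over the alternatives that adjust p, the limma adjusted p of PARP14 lay between 0.00154 and 0.0730 and that of PLSCR1 between 0.000320 and 0.0513, and the cause was not tested. The replicate numbers did not pair the libraries (correlations of the deviations of -0.035, 0.032 and 0.067), and not every library correlated best with its own number. A replicate block gave 7 genes past both criteria and a median of 1.34, and no gene's adjusted p rose above 0.0420. Reads limit XAF1 and EPSTI1, with as few as 14 and 7 reads in a control library.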

Other observations

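Several genes of the interferon pathway and of related families had few reads and share exonic bases with other annotated genes. IFNAR2, a chain of the type I interferon receptor, had a mean of 0.233 FPKM over the 6 libraries and shares 83.2% of its exonic bases. IL10RB, a chain of the type III interferon receptor, had 0.151 FPKM and shares 38.1%. PLSCR3, a relative of PLSCR1, had 0.208 FPKM and shares 76.6%, and DIABLO, a mitochondrial antagonist of XIAP, had 0.250 FPKM and shares 30.4%. None of these 4 genes was tested, and how reads on shared bases were counted is not given in the sources used here.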
